A study of Mus musculus with 6 samples.

Results

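Cells make cholesterol from acetyl-CoA through the mevalonate pathway and then a chain of sterol-modifying enzymes, import it through lipoprotein receptors, and export it through ABC transporters. The transcription factor SREBP2 switches on the enzymes and import genes when membrane sterol is low, and is held in the endoplasmic reticulum by the INSIG proteins when sterol is plentiful. The liver X receptors (LXR) sense oxysterols and switch on the export genes, so the SREBP2 and LXR programmes usually run in opposite directions; the mammary gland is among the tissues where lipid synthesis is a central function.

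These sterol genes were examined in cultured mouse mammary stem cells, 3 wild-type (WT) and 3 Mll3-null arrays. A list of 32 genes was taken from the pathway's enzymes, regulators, transporters and receptors, of 22180 genes tested in all, and 28 of the 32 had a probe set assigned to that gene alone. Acat2, Nr1h2 and Soat1 were not analysed here, and neither was Idi1, whose probe set is shared with a second gene. The study used CRISPR-made mammary stem cell lines, grown as organoids, to ask what loss of MLL3 (gene Kmt2c), a histone methyltransferase that marks enhancers, does to expression. Beside genotype the groups have no stated difference; mouse strain, animal age, edited site and number of clones were not stated in the sources used. Arrays are labelled biological replicates, but not as separate lines, clones or cultures, so p-values measure only the spread between these samples. Values are log2 expression per probe set, differences are Mll3-null minus WT, and called means an adjusted p under 0.05 in limma's moderated test over all genes tested. In bulk RNA, fewer cells of a type and less RNA per cell cannot be told apart.

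Several facts of the whole series bear on these genes. The log2 level of Kmt2c itself averaged 6.01 ± 0.55 over WT and 6.11 ± 0.29 over Mll3-null arrays (SD, n = 3 per group). A probe set outside an edited site checks nothing, and where this one lies against the edit is unknown, so the labels could not be checked this way. Of the epithelial markers, Epcam stood between 10.72 and 10.94 on all arrays. The basal keratin gene Krt14 was between 11.74 and 12.43 on the other arrays but 6.65 in Mll3-null replicate 3, which stood apart, and the mean level of 7 basal markers was 5.09 there against 7.40 to 7.97 elsewhere. Markers of other cell types were low: mean log2 levels on the 6 arrays were 3.93 to 4.17 for 7 adipocyte, 3.80 to 3.99 for 8 macrophage and leukocyte, 4.21 to 4.49 for 8 fibroblast and 4.05 to 4.15 for 8 endothelial genes. No detection values were used, so what level counts as absent is unknown.

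Promoter sequence is shown first for the 5 enzymes with the widest lower difference (Ebp, Msmo1, Cyp51, Hmgcs1 and Mvk) and for Insig1, the gene with the widest higher one. These genes were picked by the size of their differences in these data, and none of them was called. Each line gives the 220 bases before the annotated start from RefSeq (GRCm38.p6), 5′ to 3′ on the gene's strand. The stretches are chr13:119690131-119690350 on the plus strand for Hmgcs1, chr5:114444049-114444268 plus for Mvk, chr5:4104698-4104917 minus for Cyp51, chr8:64733579-64733798 minus for Msmo1, chrX:8193513-8193732 minus for Ebp and chr5:28071192-28071411 plus for Insig1. Capitals mark matches to CCAAT, the box bound by NF-Y, a cofactor of SREBP, and to TCACNCCAC, 1 form of the sterol regulatory element, on either strand.
Hmgcs1: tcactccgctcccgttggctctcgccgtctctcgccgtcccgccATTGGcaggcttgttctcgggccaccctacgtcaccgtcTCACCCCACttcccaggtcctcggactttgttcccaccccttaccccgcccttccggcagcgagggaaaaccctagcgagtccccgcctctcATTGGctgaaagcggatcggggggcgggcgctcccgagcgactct
Mvk: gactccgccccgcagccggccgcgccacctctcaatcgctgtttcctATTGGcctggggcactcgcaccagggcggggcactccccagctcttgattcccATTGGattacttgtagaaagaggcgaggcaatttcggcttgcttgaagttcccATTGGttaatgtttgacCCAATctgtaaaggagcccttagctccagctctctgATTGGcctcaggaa
Cyp51: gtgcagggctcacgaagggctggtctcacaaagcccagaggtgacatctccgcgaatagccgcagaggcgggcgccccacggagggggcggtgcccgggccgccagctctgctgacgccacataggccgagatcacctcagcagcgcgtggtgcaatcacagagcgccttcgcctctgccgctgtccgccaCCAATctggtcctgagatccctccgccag
Msmo1: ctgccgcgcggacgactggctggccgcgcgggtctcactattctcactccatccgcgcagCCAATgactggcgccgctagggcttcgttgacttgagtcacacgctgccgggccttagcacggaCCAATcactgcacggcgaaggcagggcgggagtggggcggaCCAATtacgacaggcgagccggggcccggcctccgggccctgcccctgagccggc
Ebp: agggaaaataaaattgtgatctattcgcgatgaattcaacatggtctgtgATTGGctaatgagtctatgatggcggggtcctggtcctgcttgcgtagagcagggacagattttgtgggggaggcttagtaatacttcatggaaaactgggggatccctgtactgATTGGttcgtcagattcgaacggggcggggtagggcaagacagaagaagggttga
Insig1: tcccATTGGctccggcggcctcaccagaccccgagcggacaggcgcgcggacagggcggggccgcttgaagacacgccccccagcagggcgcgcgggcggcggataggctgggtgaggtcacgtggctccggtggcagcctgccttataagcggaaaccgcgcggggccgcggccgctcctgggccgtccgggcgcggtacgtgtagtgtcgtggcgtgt

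In windows from 250 bases before to 50 after the start, 14 of the 15 listed synthesis enzymes with a RefSeq window (unmeasured Acat2 and Idi1 among them) held a CCAAT box on either strand, against 41.6% of 16990 tested genes with a window. The GC box GGGCGG, bound by Sp1, was likewise found in 14 of the 15 enzymes, against 49.5% of genes. The sterol element, searched only as the exact pattern TCACNCCAC, matched 1 enzyme, Hmgcs1 (positions -137 to -129 from the start), against 1.43% of genes. Elements that differ from this pattern would be missed, so the other enzymes cannot be said to lack one. The LXR element as an exact direct repeat was found in 0 of the 26 listed genes with a window, and in 0 of the tested genes. In the printed stretches the CCAAT and sterol element matches do not overlap. Mvk has 5 CCAAT matches, Msmo1 has 3, Ebp and Hmgcs1 have 2 each, and Cyp51 and Insig1 have 1. Fdps, Fdft1, Sqle, Stard4, Npc1 and Abcg1 have no window in the table. A match is a description of letters and not of binding.

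None of the 28 sterol genes was called different between Mll3-null and WT cells; over all genes tested 0% were called, with adjusted p for the members from 0.84 to 0.999 (limma, Benjamini-Hochberg). At an unadjusted p under 0.05 there was 1 member, Ebp, on the lower side, against 4.93% of all genes. That count is no larger than the background and is not a result about these genes. It was 0 without WT replicate 1 and without Mll3-null replicate 2, 2 (Abcg1 and Nr1h3) without WT replicate 2, and 11 when Mll3-null replicate 1 was left out. The members differed from each other in direction. Of the 28, 19 had a lower and 9 a higher mean in Mll3-null cells, with a median difference of -0.14 against 0.01 over all genes tested. Over all genes tested 10747 of 22180 had a lower mean, as did 4823 of the 8752 with a mean log2 value over 6. Among the 16 measured synthesis enzymes 14 had a lower mean (median -0.20), and among the 19 genes regarded as SREBP2-driven (the enzymes with Srebf2, Insig1 and Stard4) 15 did (median -0.18). Leaving out Mll3-null replicate 1 moved the enzymes' median to -0.34, and leaving out Mll3-null replicate 3 moved it to -0.07.

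**Figure D1:**
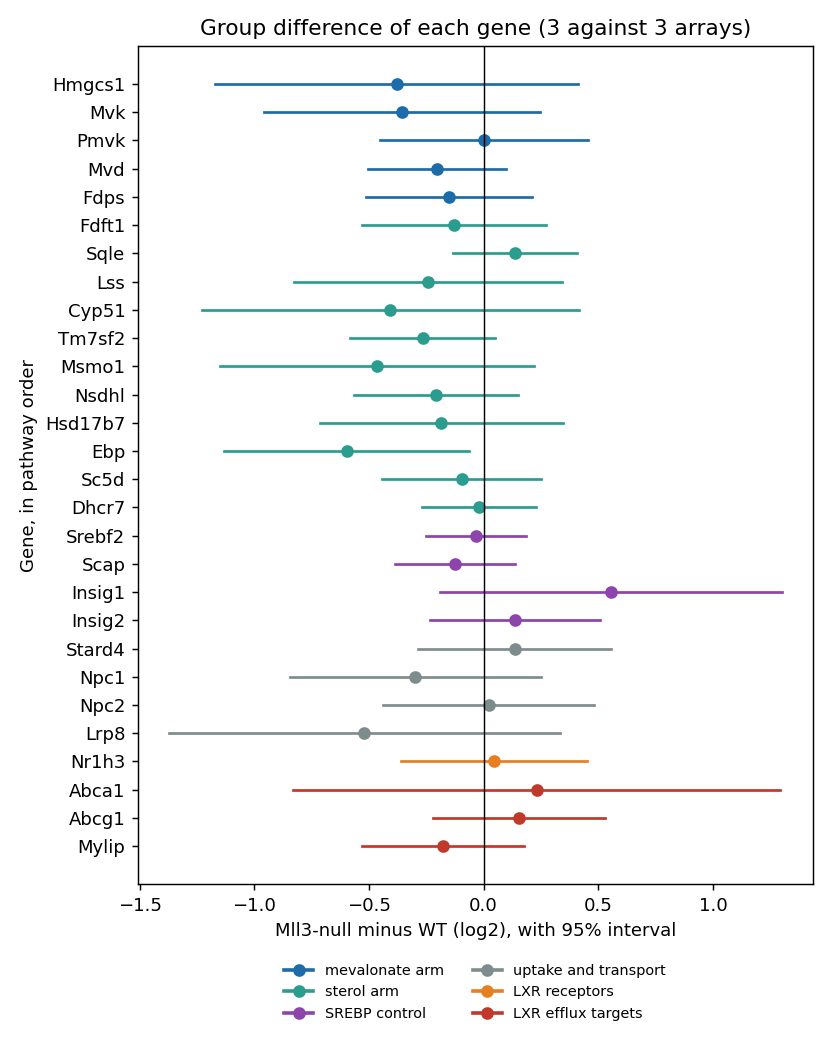
Difference between group means (Mll3-null minus WT, log2, x axis) with its 95% interval from limma for each of 28 sterol genes in pathway order; colours mark the role. The interval of Ebp, from -1.13 to -0.06, is the one that does not reach 0, and Ebp did not pass adjustment over all genes.

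The 3 Mll3-null arrays differed from each other in these genes. For 8 of the 16 enzymes (Hmgcs1, Mvk, Fdps, Fdft1, Cyp51, Msmo1, Nsdhl and Sc5d) replicate 1 lay above all WT arrays and replicates 2 and 3 below them. Averaged over the 16 enzymes, the deviation from the 6-array mean was 0.13, 0.06 and 0.14 on WT arrays 1 to 3, and 0.26, -0.25 and -0.34 on Mll3-null arrays 1 to 3 (log2). Replicates 2 and 3 were both below every WT array for 11 of the 16 enzymes, against 14% of all genes tested and 22.2% of the 8752 genes with a mean log2 value over 6. Replicate 1 was above every WT array for 10 of the 16, against 22.5% of all genes. With Mll3-null replicate 1 left out, 11 members had an unadjusted p under 0.05, all lower, among them Msmo1, Cyp51 and Mvk, against 12.4% of all genes; 0 were called, and the lowest adjusted p of a member was 0.19, for Msmo1 (limma, Benjamini-Hochberg). The replicates of a group have no order and their division here was seen in the data.

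**Figure D2:**
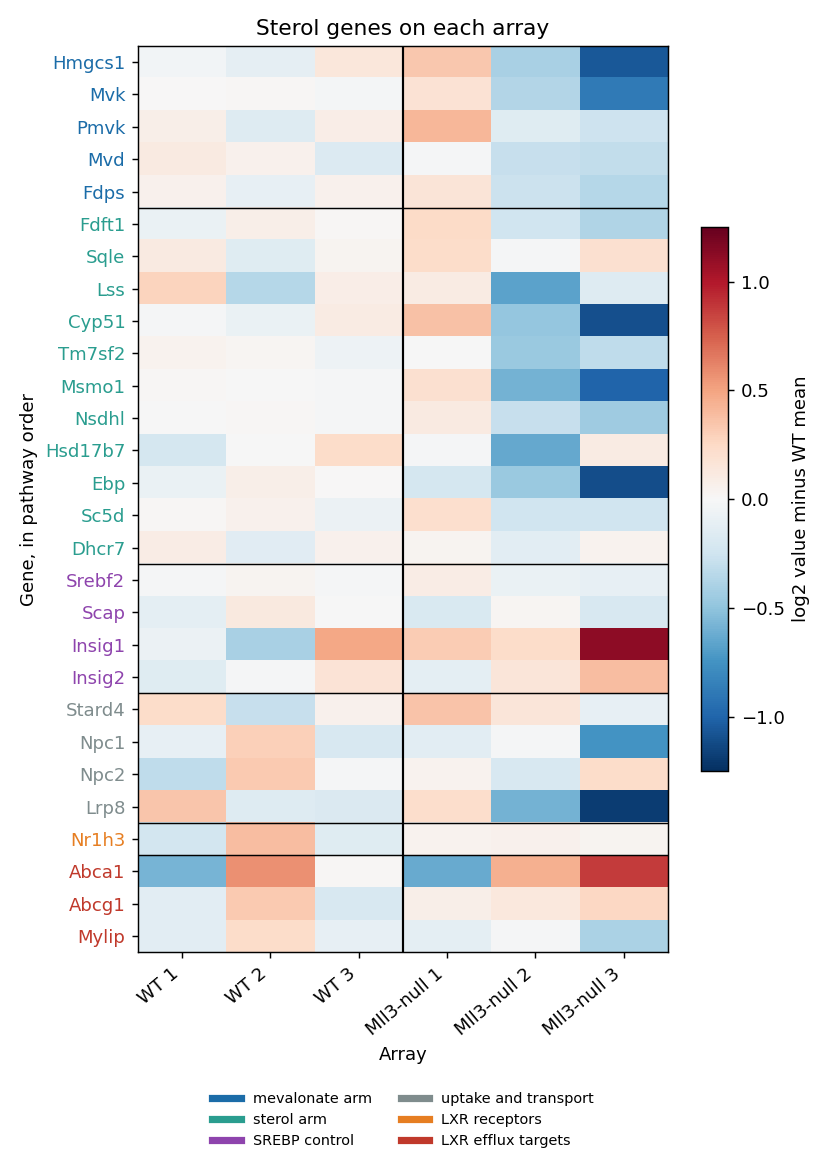
Log2 value minus the WT mean (colour) for 28 sterol genes (rows, in pathway order, names coloured by role) on 6 arrays (columns). In enzyme rows such as Hmgcs1 and Msmo1, Mll3-null 1 is red and Mll3-null 2 and 3 are blue, while Insig1 and Abca1 are red on Mll3-null 3.

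The mean of cell cycle genes was also lowest on the 2 arrays with low enzymes, and the mean of luminal markers was highest there. The mean of basal markers was high on 1 of these arrays and low on the other. The part of these in the result was not tested. The mean deviation of 11 cell cycle genes, a list chosen after the data were seen, was 0.57, -0.17 and 0.19 on WT arrays 1 to 3 and 0.54, -0.31 and -0.81 on Mll3-null arrays 1 to 3. The mean of the 7 basal markers was 0.71 in Mll3-null replicate 2 and -2.17 in replicate 3, the highest and the lowest of the 6 arrays. In replicate 2, 1 of the 7 was above all WT arrays (Acta2, 2.32 above its WT mean) and 1 was below. The median of the 7 there was 0.09 above the WT mean. In replicate 3, 5 of the 7 were below all WT arrays and 0 above. The mean of the 7 luminal markers was 0.30 in Mll3-null replicate 2 and 0.50 in replicate 3. It was 0.01, -0.67 and 0.13 on WT arrays 1 to 3 and -0.26 in Mll3-null replicate 1. In Mll3-null replicate 2, 2 of the 7 were above all WT arrays: Kit and Elf5, 2.44 and 1.49 above their WT means. The median of the 7 there was 0.02 above the WT mean. In replicate 3, 4 of the 7 were above and 1 was below all WT arrays.

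In the first arm of the pathway, from acetyl-CoA units to farnesyl diphosphate, 4 of 5 measured genes had a lower mean. Hmgcs1, which condenses acetyl-CoA units into HMG-CoA, was at 10.34, 10.27 and 10.52 on WT arrays 1 to 3 and at 10.71, 9.97 and 9.31 on Mll3-null arrays 1 to 3. The highest and the lowest values were both in the Mll3-null group, which surrounds WT, and the difference was -0.38 ± 0.33 (log2, SE). Mvk, mevalonate kinase, was at 6.82, 6.83 and 6.79 in WT and 6.99, 6.45 and 5.93 in Mll3-null cells. Its WT arrays were within 0.04 of each other and the Mll3-null arrays again lay on both sides, with a difference of -0.36 ± 0.25. Without Mll3-null replicate 3 the difference was -0.04 for Hmgcs1 and -0.09 for Mvk, and without replicate 1 it was -0.73 and -0.62. Pmvk, the next kinase, differed by 0.0016 ± 0.19, with replicate 1 at 8.81 above all WT arrays and the others at 8.25 and 8.15. Mvd, the decarboxylase that makes isopentenyl diphosphate, differed by -0.20 ± 0.13 and Fdps, farnesyl diphosphate synthase, by -0.15 ± 0.15. For both, Mll3-null replicates 2 and 3 lay below all WT arrays (7.29 and 7.27 for Mvd, 9.32 and 9.23 for Fdps). The Fdps difference was -0.31 with Mll3-null replicate 1 left out and -0.05 with replicate 3 left out.

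In the second arm, from farnesyl diphosphate through squalene to cholesterol, 10 of 11 measured genes had a lower mean. Ebp, the sterol isomerase, was at 8.91, 9.08 and 9.01 on WT arrays 1 to 3 and at 8.78, 8.53 and 7.89 on Mll3-null arrays 1 to 3. It was the one member whose groups did not overlap, against 5.3% of all genes with every Mll3-null array below every WT array and 5.44% with every one above. The difference was -0.60 ± 0.22, or 1.51-fold lower, with an unadjusted p of 0.034 and an adjusted p of 0.84 (limma). The difference shrank to -0.34 when Mll3-null replicate 3 was left out and was -0.79 when replicate 1 was. Msmo1, the methylsterol oxidase that removes the C4 methyl groups, was at 9.64, 9.63 and 9.61 in WT and at 9.83, 9.03 and 8.62 in Mll3-null cells. The WT arrays were nearly equal, and the Mll3-null arrays lay on both sides of them (difference -0.46 ± 0.29, or -0.20 without Mll3-null replicate 3). Cyp51, the lanosterol demethylase, was at 9.17, 9.10 and 9.29 in WT and at 9.55, 8.70 and 8.09 in Mll3-null cells. It had the same order of arrays, with a difference of -0.41 ± 0.34 and of -0.06 without Mll3-null replicate 3.

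Nsdhl, which works in the same demethylation as Msmo1, was at 9.98, 9.998 and 9.97 in WT and at 10.10, 9.70 and 9.54 in Mll3-null cells, the same order over a narrower range (difference -0.21 ± 0.15, or -0.09 without Mll3-null replicate 3). Tm7sf2, a sterol reductase, was at 6.98, 6.96 and 6.87 against 6.93, 6.47 and 6.62 (difference -0.27 ± 0.13, or -0.16 without Mll3-null replicate 2), so that Mll3-null replicate 1 lay within the WT range. Fdft1, squalene synthase (-0.13 ± 0.17), and Sc5d, the C5 desaturase (-0.10 ± 0.14), also had replicates 2 and 3 below and replicate 1 above all WT arrays. Without Mll3-null replicate 3 their differences were -0.0083 and -0.02.

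The other 8 enzymes did not have this order. In Ebp replicate 1 also lay below WT, in Mvd and Tm7sf2 it lay inside the WT range, and in Pmvk replicate 2 did. Sqle, squalene epoxidase and a rate-limiting step, was at 9.09, 8.83 and 9.01 in WT and at 9.20, 8.96 and 9.17 in Mll3-null cells, a difference of 0.14 ± 0.11 with a 95% interval from -0.13 to 0.41 (0.06 without WT replicate 2 and 0.21 without Mll3-null replicate 2). Dhcr7, the last reductase, differed by -0.02 ± 0.10 (interval from -0.27 to 0.23), and its direction changed without WT replicate 1 (0.03). Hsd17b7, a ketoreductase, was low in Mll3-null replicate 2 (7.41) and at 8.15 in replicate 3, within the WT range of 7.82 to 8.28; its difference of -0.18 became 0.04 without Mll3-null replicate 2. Hsd17b7 lies on chromosome 1, whose 510 genes with a mean over 6 were shifted by a median of 0.30 in Mll3-null replicate 3, relative to each gene's median. Lss, lanosterol synthase, was at 8.63, 7.99 and 8.43 in WT and at 8.46, 7.68 and 8.19 in Mll3-null cells, with overlapping groups and a difference of -0.24 ± 0.24 (-0.03 without Mll3-null replicate 2). It lies on chromosome 10, whose 443 such genes were shifted by 0.22 in WT replicate 1. The part of these chromosome shifts in both genes was not tested. Only chromosomes 1 and 10 were summarised, so whether the other enzymes lie on shifted chromosomes is not shown.

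Spread within a group differed for most enzymes, which in part restates the order of arrays described above. For the 8 enzymes with replicate 1 above and replicates 2 and 3 below all WT arrays, a wider Mll3-null SD follows from that order. The SD over the Mll3-null arrays exceeded that over the WT arrays for 14 of 16 enzymes, against 55.1% of all genes tested and 67.1% of the genes with a mean over 6. The median ratio of SDs was 4.08 for the enzymes, 1.12 for all genes and 1.47 for the genes with a mean over 6. It was as high as 41.2 for Msmo1, 25.8 for Mvk and 22.7 for Nsdhl, whose WT SDs were 0.01, 0.02 and 0.01. Without Mll3-null replicate 3 the SD was wider in Mll3-null cells for 15 of the 16 enzymes, and without Mll3-null replicate 1 for 11. With 3 arrays a group an SD is itself imprecise, and these ratios were not tested.

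**Figure D3:**
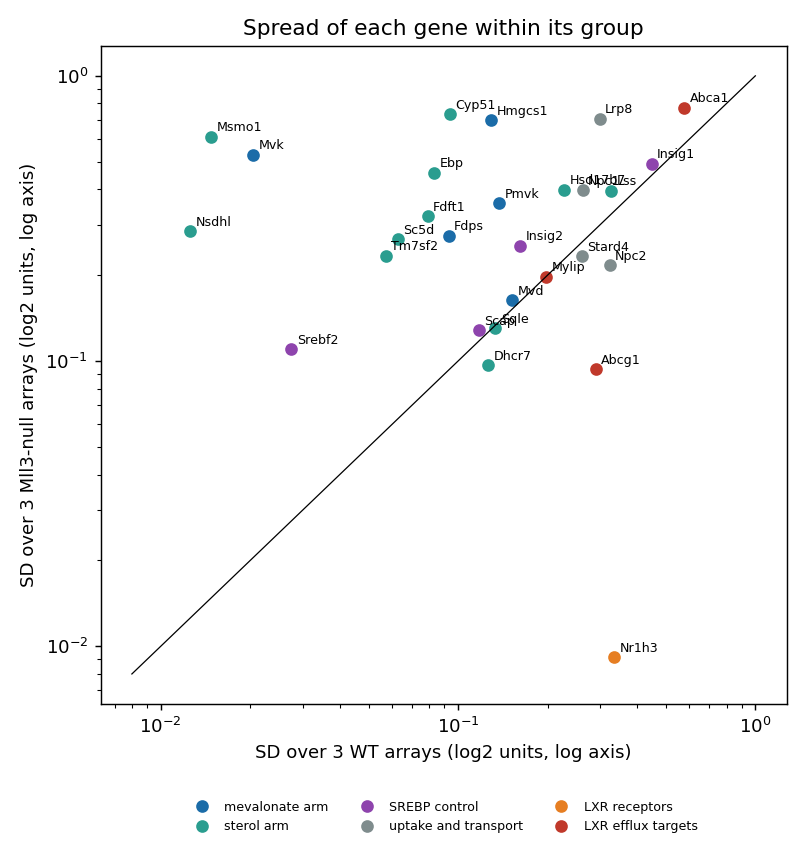
SD over 3 WT arrays (x) against SD over 3 Mll3-null arrays (y), both in log2 units on log axes, for each of 28 sterol genes; the line marks equal spread and colours mark the role. Msmo1, Mvk and Nsdhl lie far above the line and Nr1h3 and Abcg1 below it.

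Among the regulators, Srebf2, which encodes SREBP2, hardly moved on any array. It was at 9.52, 9.56 and 9.51 in WT and at 9.63, 9.45 and 9.43 in Mll3-null cells, with a difference of -0.03 ± 0.09 and an interval from -0.25 to 0.18. The values had the order of the enzymes at a far smaller size, and the direction changed without Mll3-null replicate 3 (0.0027). Scap, which escorts SREBP2 out of the endoplasmic reticulum, differed by -0.12 ± 0.11; its second probe set, dim at 4.78 to 5.11, differed by 0.13. Insig1, the SREBP target that retains SCAP, was at 8.92, 8.59 and 9.48 on WT arrays and at 9.32, 9.23 and 10.12 on Mll3-null arrays. Its groups overlapped, Mll3-null replicate 3 was the highest of all arrays, and the difference of 0.56 ± 0.31 (1.47-fold) had an unadjusted p of 0.12 and an adjusted p of 0.84 (limma). That difference was 0.27 without Mll3-null replicate 3 and 0.35 without WT replicate 2, against 0.72 without Mll3-null replicate 2 and 0.80 without WT replicate 3. In the last case its unadjusted p was 0.045, and Insig1 in place of Ebp was the 1 member under 0.05. Insig1 was thus highest on the array where Hmgcs1, Mvk, Cyp51, Msmo1 and Ebp were lowest. Insig2, its relative with the same retaining role, was at 7.36, 7.50 and 7.68 against 7.39, 7.66 and 7.90 (difference 0.14 ± 0.15, or 0.01 without Mll3-null replicate 3), and like Hsd17b7 it lies on chromosome 1.

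The import and transport genes went in different directions. Lrp8, a lipoprotein and reelin receptor, was at 7.42, 6.91 and 6.89 in WT and at 7.30, 6.48 and 5.89 in Mll3-null cells. Mll3-null replicate 1 lay inside the WT range and the others below it, and the difference was -0.52 ± 0.36 (-0.19 without Mll3-null replicate 3). Npc1, which exports cholesterol from lysosomes, was at 8.33, 8.73 and 8.23 against 8.30, 8.42 and 7.68, so that replicate 3 alone lay below WT. Its difference was -0.30 ± 0.23, and -0.07 without Mll3-null replicate 3; a second Npc1 probe set, dim at 3.67 to 4.07, differed by 0.02. Npc2, the soluble partner of NPC1, differed by 0.02 ± 0.19 and Stard4, a sterol carrier and SREBP2 target, by 0.13 ± 0.18. Stard4 was at 6.997, 6.48 and 6.83 in WT and at 7.13, 6.92 and 6.66 in Mll3-null cells, with overlapping groups.

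The LXR genes varied as much among WT arrays as between genotypes. Abca1, the transporter that loads cholesterol onto apolipoprotein A1, was at 7.19, 8.35 and 7.79 in WT and at 7.15, 8.22 and 8.65 in Mll3-null cells. High and low arrays occurred in both groups, and the difference of 0.23 ± 0.44 had an interval from -0.83 to 1.29. Its direction changed without WT replicate 1 (-0.06) and without Mll3-null replicate 3 (-0.09). Abcg1, which exports cholesterol to high-density lipoprotein, was at 5.45, 5.91 and 5.37 in WT and at 5.65, 5.71 and 5.83 in Mll3-null cells (difference 0.15 ± 0.16, ranging from 0.05 without WT replicate 3 to 0.32 without WT replicate 2). Its Mll3-null arrays fell inside the WT range. Mylip, the ubiquitin ligase that targets lipoprotein receptors for degradation, was at 8.29, 8.65 and 8.32 against 8.30, 8.41 and 8.02 (difference -0.18 ± 0.15, or -0.06 without WT replicate 2). The sign of its mean difference was opposite to those of Abca1 and Abcg1, with all 3 intervals reaching across 0. Nr1h3, which encodes LXR alpha, was at 5.47, 6.08 and 5.55 in WT and between 5.73 and 5.75 on all Mll3-null arrays, a difference of 0.04 ± 0.17.

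Setting the SREBP2-driven genes against the LXR efflux targets on each array did not separate the genotypes. The mean deviation of the 19 SREBP2-driven genes minus that of the 3 LXR targets was 0.42, -0.34 and 0.26 on WT arrays 1 to 3 and 0.50, -0.36 and -0.47 on Mll3-null arrays 1 to 3 (log2). The group means of 0.11 ± 0.40 and -0.11 ± 0.53 (SD, n = 3 each) differed by -0.22, less than the spread within either group. The difference was -0.53 without Mll3-null replicate 1, -0.45 without WT replicate 2, -0.15 without WT replicate 3, -0.09 without Mll3-null replicate 2, -0.07 without WT replicate 1 and -0.04 without Mll3-null replicate 3. On each array the pair of means lay on opposite sides of 0, but in WT replicate 2 the SREBP2-driven mean (-5.6e-04) was practically at 0. The LXR targets stood at 0.34 on that array. In Mll3-null replicates 2 and 3 they stood at 0.16 and 0.21, and the SREBP2-driven genes at -0.21 and -0.26. The LXR targets did not move together. In Mll3-null replicate 3 Mylip was 0.40 below its WT mean, its lowest array, while Abca1 was 0.87 and Abcg1 0.25 above theirs. Among the LXR targets Abca1 had the widest spread, with an SD of 0.77 over the Mll3-null arrays against 0.09 for Abcg1.

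**Figure D4:**
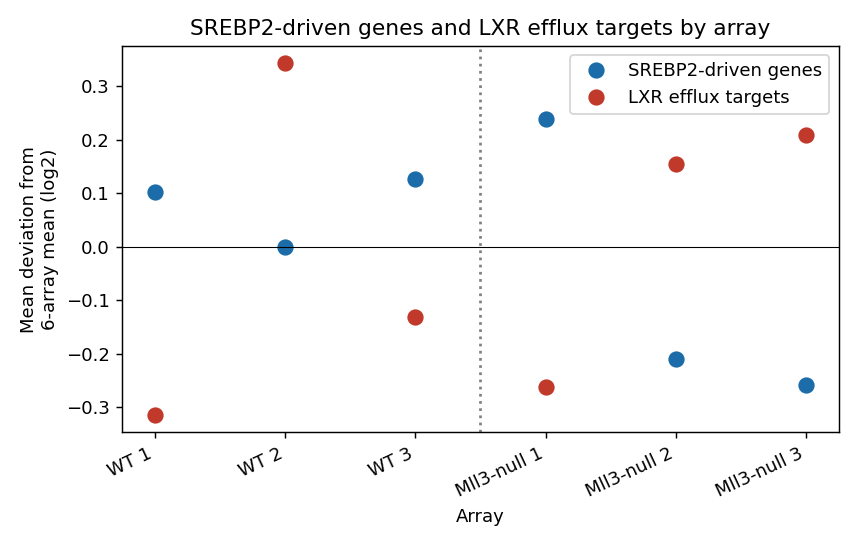
Mean deviation from the 6-array mean (log2, y) of 19 SREBP2-driven genes (blue) and 3 LXR efflux targets (red) on each array (x). The SREBP2-driven mean is above the LXR mean on WT 1, WT 3 and Mll3-null 1 and below it on WT 2, Mll3-null 2 and Mll3-null 3.

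Of a wider list of other sterol pathway genes, 50 of 62 had a probe set of their own, and 0 were called in either direction (limma, Benjamini-Hochberg). At an unadjusted p under 0.05 there were 2 higher and 1 lower, against 4.93% of all genes in both directions together. That count is near the background and is not a result about these genes. Group means were higher in Mll3-null cells for 33 of the 50 and lower for 17 (median difference 0.08). Mll3-null replicates 2 and 3 were both above all WT arrays for 17 of these 50, against 0 of the 28 members and 15.7% of all genes. Vldlr, the very-low-density lipoprotein receptor, was at 6.98, 5.92 and 7.07 in WT and at 7.46, 8.50 and 9.32 in Mll3-null cells. Every Mll3-null array was above every WT array, as for 2 of the 50 genes, against 5.44% of all genes. The Vldlr difference was 1.77 ± 0.52 (3.40-fold), and the unadjusted p of 0.0125 became 0.84 after adjustment (limma). Without any one array the difference ranged from 1.32 to 2.25. Vldlr and Lrp8, related receptors that MYLIP both targets, thus had opposite differences. The next smallest p on the higher side were those of Gramd1c, a gene of a family of sterol transfer proteins (0.29 ± 0.10), and Stard5, a sterol-binding protein (0.43 ± 0.20). On the lower side were Nceh1, a cholesteryl ester hydrolase (-0.27 ± 0.09), Tmem97, a sterol-responsive membrane protein (-0.26 ± 0.14, or -0.15 without Mll3-null replicate 2), and the receptor gene Lrp1 (-0.72 ± 0.43, or -0.28 without Mll3-null replicate 3). With the mean of its probe sets Nceh1 differed by -0.16, with an unadjusted p of 0.17 (limma) in place of 0.028. Srebf1, which encodes SREBP1 and is itself an LXR target, was at 8.02, 7.96 and 8.20 in WT and at 7.99, 8.86 and 9.71 in Mll3-null cells (named after its values were seen). It was high on the arrays where the cholesterol enzymes were low, with a difference of 0.80 ± 0.40 that was 0.36 without Mll3-null replicate 3. In WT replicate 2, the array with the highest mean of the LXR efflux targets (0.34), Srebf1 was at its lowest.

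**Figure D5:**
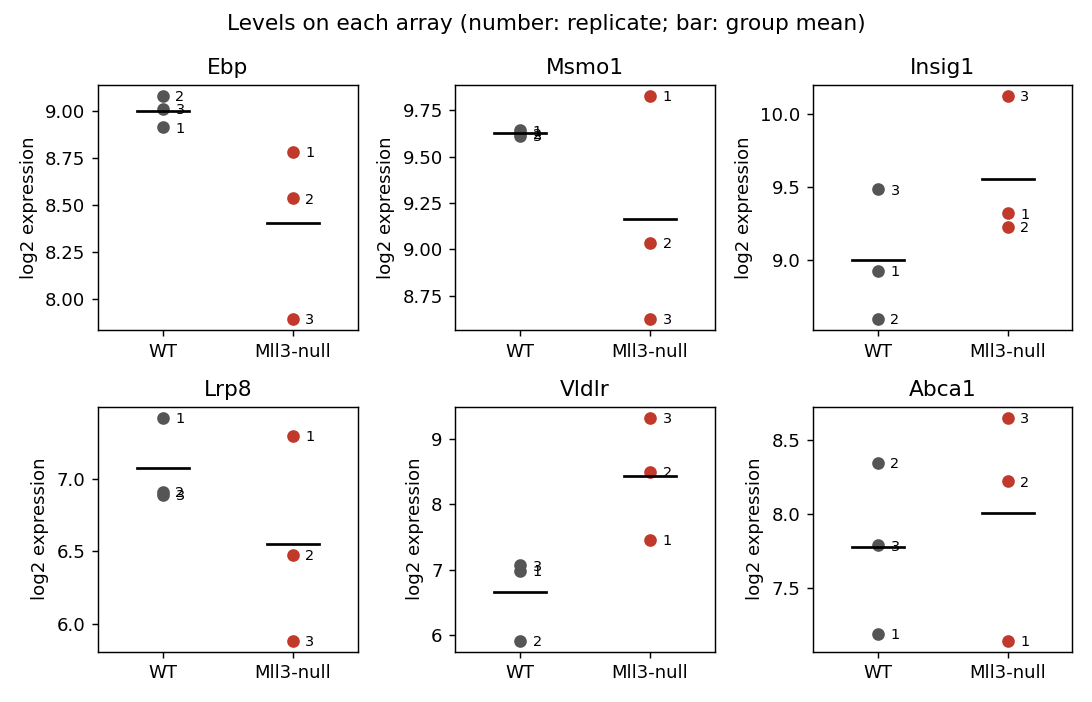
Log2 expression (y) of Ebp, Msmo1, Insig1, Lrp8, Vldlr and Abca1 in WT (grey) and Mll3-null (red) cells; points are arrays numbered by replicate and bars are group means. The groups do not overlap for Ebp and Vldlr and overlap for the other genes; each y axis has its own range.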

How the data were processed

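RNA of 6 samples of organoid-grown cells was hybridised to 1-colour Affymetrix arrays and, per the submitters' processing notes, processed with Affymetrix Expression Console (version, summarization and build: not given in the sources used here). Deposited values are on the log2 scale, from 1.72 to 13.56, with array medians of 4.35 to 4.40; with medians this close, a genotype difference in RNA content would not show. Of 41345 probe sets, 23521 had 1 symbol in the platform annotation; the highest-mean one stood for each gene, leaving 22180 genes. The number of arrays limits precision.

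The difference between genotypes was fitted over all genes by limma 3.58.1 (R 4.3.3; lmFit, then eBayes; two-sided p adjusted by Benjamini-Hochberg, threshold 0.05), which was tested on simulated data. The members and lists were chosen with earlier results of these data known, and scores over them got no p. All measured members are named, with the 3 other pathway genes of smallest p in each direction. Chromosomes came through gene identifiers from GRCm38.p6. Alternatives were spread models, array weights, a dim-gene filter (mean over 4), quantile normalization, median centring, other probe set rules, a replicate block and leaving out each array. The replicate numbers that the groups share have no stated meaning.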

Additional observations from a re-analysis of the deposited data

How the results depend on the processing

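No member was called (limma, Benjamini-Hochberg) under any of the 15 alternatives. The count of members at an unadjusted p under 0.05, 1 in the fit reported, was 3 with array weights (Tm7sf2, Msmo1 and Ebp, beside 11.3% of all genes), 4 with the replicate block (Lss, Ebp, Insig1 and Lrp8, beside 5.82% of all genes), and 0 to 11 without one array each. The replicate block pairs arrays that share only a number: deviations of same-numbered arrays correlated at 0.035, 0.079 and 0.312 across genes, and WT replicate 2 correlated best with Mll3-null replicate 1 (0.223). Of 420 recomputed member differences, 400 kept their direction and 20, in 9 members, did not; the cause was not tested. With array weights Pmvk was at -0.089 and Npc2 at -0.066, with median centring at -0.021 and -3.2e-04, with quantile normalization Dhcr7 at 0.0036, and with the mean of probe sets Scap at 0.0011, through its dim second probe set. Without one array each, the difference ran from -0.20 to 0.13 for Pmvk, -0.33 to 0.044 for Hsd17b7, -0.090 to 0.037 for Dhcr7, -0.097 to 0.0027 for Srebf2, -0.0079 to 0.26 for Stard4, -0.14 to 0.19 for Npc2, -0.073 to 0.24 for Nr1h3 and -0.091 to 0.66 for Abca1. The count of enzymes with a lower mean was 12 to 15 over all alternatives. The counts of lower means and wider spreads were chosen after the data were seen.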
